A study of Malus domestica with 9 samples.

Results

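In a set of 51 genes of apple peel, the transcript level at 6 h of light was within 0.7 log2 units of that at 0 h, and the level at 24 h was far below both. These genes were selected on their measured levels in the deposited table of 46558 genes, of which 25362 averaged at least 1 FPKM over all 9 libraries and are called tested genes here. FPKM counts the fragments of a gene per kilobase of its transcript and per M (mega) of a library total. By its usual definition that total is the mapped fragments. The level of a gene at a time was taken as log2 of the mean FPKM of its 3 libraries plus 1, and all log2 differences below are differences of such levels unless another scale is named. A gene belonged to the late fall if it was tested, if its level at 24 h lay at least 1.5 log2 units below that at 0 h and also below that at 6 h, and if the levels at 6 h and 0 h differed by less than 0.7. The same values that chose the genes therefore set limits on the depth of their fall and on their change to 6 h, and both are given as a description with no test.

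The libraries came from the peel of Malus domestica fruit that had grown in bags, taken after 0 h, 6 h or 24 h of light once the bag was off. Each time had 3 libraries, described by the submitters as biological replicates, without saying whether these were separate fruit, trees or pools. The sources used here do not give genotype, fruit age, light source or any night within the 24 h, and all 3 groups share the earlier growth in bags. No fruit left in bags was sampled at the light times, so light, bag removal and elapsed time cannot be told apart. The clock time of sampling is not known here.

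Bagging keeps a growing apple in darkness, and its peel stays pale. When light arrives, phytochromes, cryptochromes and the UV-B receptor UVR8 restrain the ubiquitin ligase COP1, so that transcription factors such as HY5 accumulate and, in apple, MYB factors switch on the anthocyanin pathway that reddens the peel. The level of a transcript depends on both its synthesis and its decay. In bulk peel, fewer cells of a type and less RNA per cell cannot be told apart.

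The genes carry apple locus identifiers only. None of them occurs in the RefSeq gene table used here (0 of 46558), and the table itself holds no gene names, so no role, sequence or marker check of the tissue can be given. Of the late-fall genes, 8 are named below.

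The 24 h group held 1 library that stood apart. Over the tested genes, the third 24 h library deviated from its group mean with an SD of 0.328 log2 units. In the other libraries this SD was 0.123 to 0.195. The tested genes of each library held 15.3 to 19.4 M reads, as recovered from the FPKM steps. The recovered library total behind the FPKM was 16.2 M in the third 24 h library, against 19.4 M such reads. It was 16.9 against 17.2 M in the first and 17.6 against 18.0 M in the second. In each 0 h and 6 h library the total exceeded these reads. The 24 h totals thus do not hold all reads assigned to genes, and the 24 h FPKM are scaled up relative to summed reads. The late-fall genes had a median of 1049, 1264 and 206 reads over the 3 libraries of 0 h, 6 h and 24 h, so the 24 h values rest on the fewest counts. In 5 of the 51 genes fewer than 30 reads were left over the 24 h libraries together, and 1 gene was listed at 0 in 1 of them.

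The late-fall genes were mostly of moderate abundance before they dropped. Their mean levels ran from 2.86 to 306.8 FPKM at 0 h, with a median of 19.1, from 4.30 to 486.5 FPKM at 6 h, with a median of 19.9, and from 0.240 to 91.5 FPKM at 24 h, with a median of 3.75. The median tested gene had 8.23, 8.71 and 8.88 FPKM at the 3 times. With a pseudocount of 1, genes of very low level at 0 h or 6 h cannot meet the fall limits, so the rule bears on this contrast. A similar median at 0 h, 18.5 FPKM, was found in 471 tested genes at least 1.5 log2 units lower at 24 h than at 0 h. Those genes were already at least 0.7 units lower at 6 h. At 0 h 37 of the 51 genes averaged at least 10 FPKM, at 6 h 40 did and at 24 h 9 did. At least 100 FPKM was reached by 5 genes at 0 h, 5 at 6 h and 0 at 24 h, while 7 genes averaged under 1 FPKM at 24 h.

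Library by library, the median of the 51 genes was 13.96, 18.8 and 20.9 FPKM for 0 h, 20.5, 20.1 and 19.5 FPKM for 6 h, and 3.92, 4.57 and 2.47 FPKM for 24 h. The 6 h libraries lay close together, the first 0 h library was low within its group, and so was the third 24 h library. As a share of all FPKM in a library, the 51 genes together came to 0.306% ± 0.0182 in the 0 h group, 0.352% ± 0.00785 in the 6 h group and 0.0679% ± 0.0152 in the 24 h group (SD, n = 3 each).

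**Figure D1:**
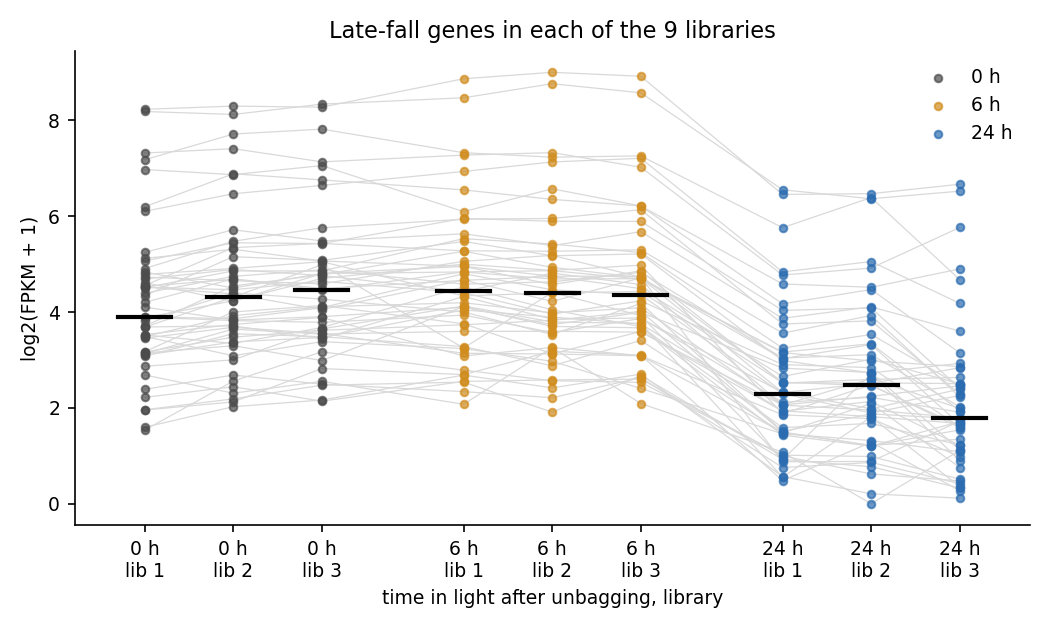
Levels of the 51 late-fall genes as log2(FPKM + 1) in each of the 9 libraries, ordered by time in light (0 h, 6 h, 24 h). Each point is a gene, thin lines join the points of a gene, and black bars mark the library medians, which correspond to 13.96 to 20.9 FPKM at 0 h, 19.5 to 20.5 at 6 h and 2.47 to 4.57 at 24 h.

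At 24 h the genes retained between 5.47% and 31.0% of their 0 h FPKM, with a median of 22.0%, and between 4.28% and 34.9% of their 6 h FPKM, with a median of 19.1%. On the log2 scale the difference of 24 h from 0 h ran from -3.44 to -1.51 with a median of -1.79, and that of 24 h from 6 h ran from -3.78 to -1.503 with a median of -1.98. The medians over all tested genes were 0.01 and 0.00328. Most falls were close to the limit that chose them: 33 of the 51 genes lay less than 2 log2 units below 0 h, 18 lay at least 2 units below, 5 at least 2.5 units and 1 at least 3 units. Against 6 h, 24 genes lay at least 2 units lower and 6 at least 2.5 units. The comparisons of 24 h with 0 h and with 6 h share the 24 h libraries, so they are not separate evidence of the fall.

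MD16G1070600 had the deepest fall against both times. Its FPKM was 25.5, 24.2 and 23.0 in the 0 h libraries, 32.3, 35.3 and 25.5 in the 6 h libraries, and 0.835, 0.845 and 2.30 in the 24 h libraries. The 24 h libraries lay far below all others, and the third was the highest of them. The group means were 24.2 ± 1.25 FPKM for 0 h, 31.0 ± 5.02 for 6 h and 1.33 ± 0.843 for 24 h (SD, n = 3 each), resting on 1750, 2236 and 89 reads. Its log2 differences were -3.44 against 0 h and -3.78 against 6 h, and -3.78 and -4.12 without the third 24 h library.

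MD02G1163100 had the next deepest fall against 0 h among the genes open to naming. It had 33.8, 38.6 and 32.5 FPKM in the 0 h libraries, 30.01, 25.8 and 25.9 in the 6 h libraries, and 4.80, 4.51 and 2.10 in the 24 h libraries. Here the third 24 h library was the lowest, and the 6 h libraries already lay below those of 0 h without overlap. At 24 h it retained 10.9% of its 0 h level, and its log2 differences were -2.90 against 0 h and -2.55 against 6 h.

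MD17G1260900 had the next deepest fall against 6 h. Its FPKM was 13.7, 17.8 and 24.99 in the 0 h libraries, 31.0, 28.2 and 30.5 in the 6 h libraries, and 2.68, 4.57 and 2.01 in the 24 h libraries. The 0 h libraries were spread widely, at 18.8 ± 5.70 FPKM (SD, n = 3), and all lay below those of 6 h. Its 24 h minus 6 h log2 difference was -2.92, and its 24 h minus 0 h difference was -2.28.

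The course to 6 h differed between genes within the limit of 0.7 log2 units. The difference of 6 h from 0 h was above 0 in 33 genes and below 0 in 18, with a median of 0.16 and a range of -0.66 to 0.69. All 6 h libraries exceeded all 0 h libraries in 18 of the 51 genes (35.3%), against 35.8% of the tested genes. All 6 h libraries lay below all 0 h libraries in 6 of the 51 genes (11.8%), against 32.8% of the tested genes. The limit on the 6 h change bears on these counts, so nothing is read from them. Over 0 h, 6 h and 24 h, the median level of the higher group was 18.8, 22.5 and 3.75 FPKM. That of the lower group was 21.4, 15.9 and 3.77 FPKM. Both groups thus ended near the same median level at 24 h. The median log2 difference of 24 h from 0 h was -1.71 in the higher group and -2.10 in the lower group, while that of 24 h from 6 h was -2.16 in the higher group and -1.74 in the lower group. Splitting the genes by their 6 h change favours this opposite order by arithmetic.

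MD12G1155300 and MD13G1161700 lay nearest to the upper limit on the 6 h change. MD12G1155300 had 7.85, 8.83 and 6.93 FPKM at 0 h, 16.3, 12.0 and 11.7 at 6 h, and 1.70, 1.30 and 2.28 at 24 h. MD13G1161700 had 6.30, 7.01 and 11.5 FPKM at 0 h, 16.5, 12.9 and 12.6 at 6 h, and 0.468, 2.51 and 0.280 at 24 h. In both genes the 6 h libraries were the highest of all, and their 6 h minus 0 h log2 differences were 0.69 each. MD13G1161700 was spread widely at 24 h, with 1.09 ± 1.24 FPKM (SD, n = 3) from 50 reads, and its second 24 h library held most of that level.

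MD11G1054500 and MD06G1091500 lay nearest to the lower limit. MD11G1054500 had 124.5, 115.6 and 131.9 FPKM at 0 h, 67.3, 94.0 and 73.2 at 6 h, and 23.0, 21.9 and 28.8 at 24 h. MD06G1091500 had 10.5, 12.4 and 13.8 FPKM at 0 h, 7.48, 8.57 and 7.51 at 6 h, and 2.62, 2.43 and 0.978 at 24 h. In these genes the 3 times formed separate steps, with 6 h between 0 h and 24 h and no overlap. Their 6 h minus 0 h differences were -0.66 and -0.58, and their 24 h minus 6 h differences were -1.63 and -1.56.

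MD03G1085000, named after its values were seen, had the highest mean level of the 51 genes at each time. Its FPKM was 299.0, 313.1 and 308.3 at 0 h, 465.6, 511.0 and 482.9 at 6 h, and 86.5, 87.6 and 100.5 at 24 h. The libraries of each time lay close together and the times did not overlap. The group means were 306.8 ± 7.17 FPKM for 0 h, 486.5 ± 22.9 for 6 h and 91.5 ± 7.76 for 24 h (SD, n = 3 each), so that 29.8% of the 0 h level and 18.8% of the 6 h level were left at 24 h.

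**Figure D2:**
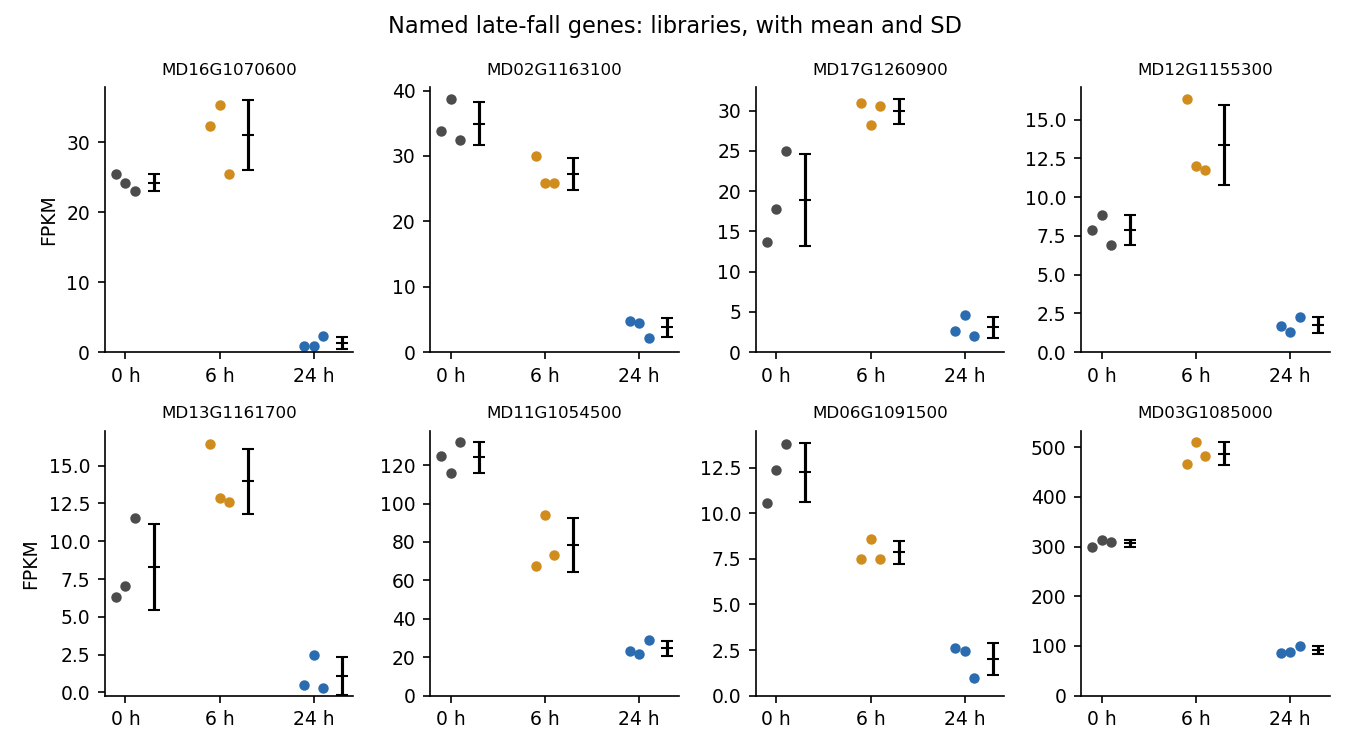
FPKM of the 8 named late-fall genes at 0 h, 6 h and 24 h of light on linear axes. Points are the 3 libraries of each time and the bars beside them give mean and SD. In each gene the 24 h libraries lie below those of 0 h and 6 h, as in MD16G1070600 with 0.835 to 2.30 FPKM at 24 h.

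The genes were also read in a linear model on log2(FPKM + 1) fitted with limma to all tested genes, with a call at a Benjamini-Hochberg adjusted p under 0.05 and a difference of at least 1 log2 unit. Of the 51 genes, 51 were called lower at 24 h than at 0 h, where 7.90% of all tested genes were called lower, and 51 were called lower at 24 h than at 6 h, where the share was 7.79%. In 51 genes every 24 h library lay below every 0 h and 6 h library, which held for 14.3% of the tested genes. The rule used these contrasts, so nothing is read from these counts. Between 6 h and 0 h limma called 0 of the 51 genes in either direction, against 15.5% of the tested genes, and limma-voom on recovered reads called 0 as well, against 20%. At an unadjusted p under 0.05 there were 17, against 56.9% of the tested genes. By limma adjusted p alone, the 6 h level was higher than that of 0 h in 12 genes and under it in 4, together 16 of 51, against 51.1% of the tested genes. Here too the limit of the rule lowers the count.

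The choice of the set depended on single libraries, and leaving out the third 24 h library kept the fewest of the 51 genes. The rule without that library gave 40 genes, of which 33 were among the 51, so 18 genes were lost and 7 others entered. The 8 remaining libraries also took part in choosing the 51 genes, and leaving out 1 library of 3 can move a mean only so far, so the values that follow are a description. Without that library the median difference from 0 h was -1.72 and that from 6 h was -1.86. The weakest differences were -1.17 against 0 h and -1.16 against 6 h.

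A gene can be lost in this way only if the third 24 h library lies below the mean of the other two, and one can enter only if that library lies above it. In the 18 lost genes the median FPKM was 4.72, 4.66 and 2.18 in the 24 h libraries, against medians of 13.8 at 0 h and 14.9 at 6 h. Of them, 14 no longer met the limit against 0 h and 6 no longer met that against 6 h, including 2 that failed both. The 7 genes that entered had medians of 2.56, 2.80 and 3.73 FPKM in the 24 h libraries and of 10.1 FPKM at 0 h. In the 33 genes that kept their place, the third library was lowest in 17, and the median 24 h values were 3.92, 4.57 and 3.05 FPKM. Among the named genes, MD06G1091500 was lost, with a log2 difference of -1.33 against 6 h in the 8 libraries.

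**Figure D3:**
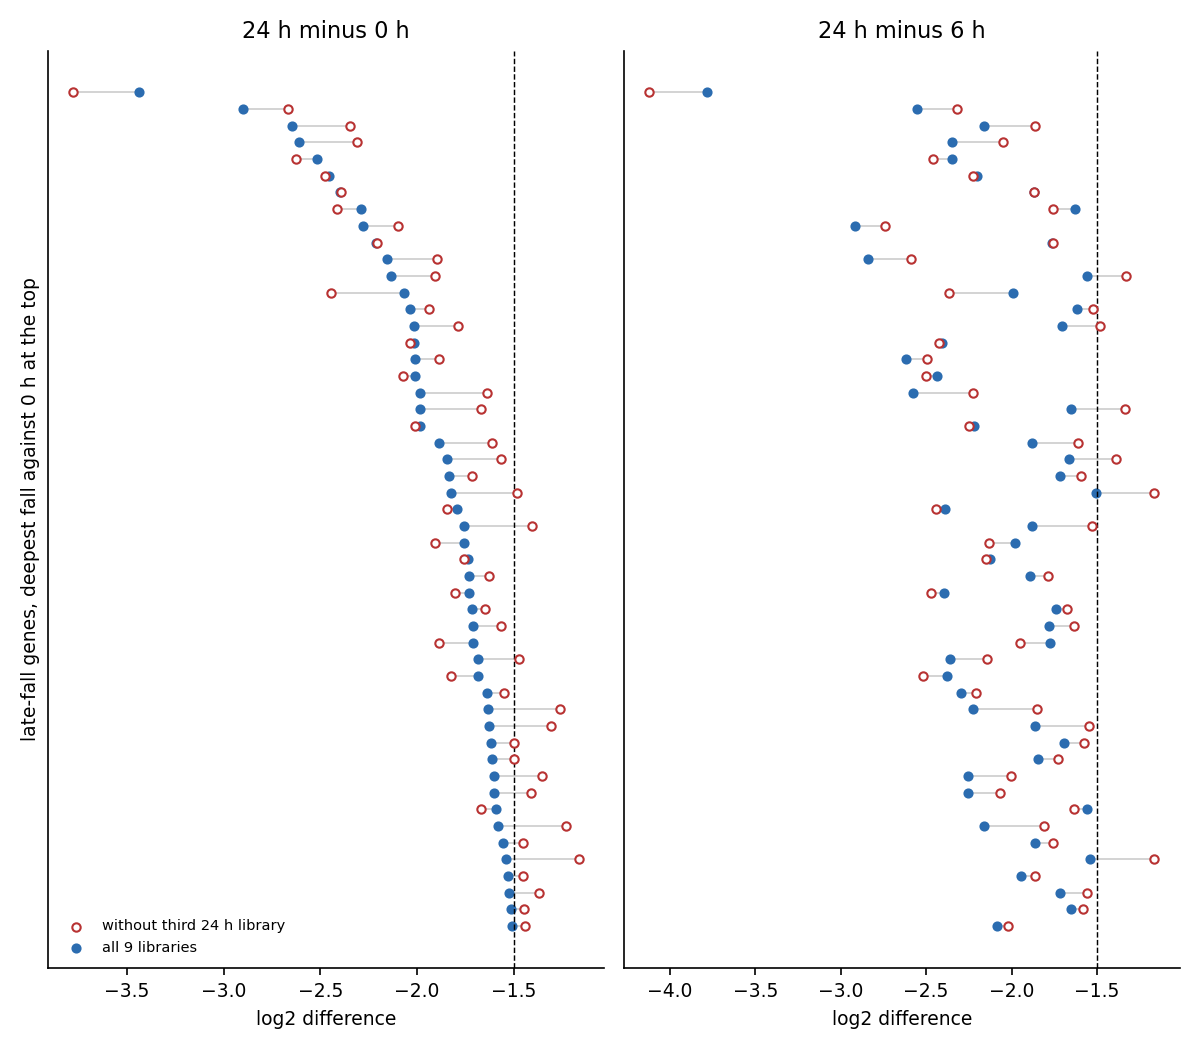
Log2 differences of the 51 late-fall genes for 24 h minus 0 h (left) and 24 h minus 6 h (right), with open circles for the values without the third 24 h library and filled circles for all 9 libraries. The dashed line marks the limit of -1.5; 18 genes cross it in at least 1 panel, and no open circle lies above -1.16.

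The fall was also read in libraries that took no part in the choice of the genes read, which needed a new choice of genes each time. The rule was applied to the libraries of 2 replicate numbers, and the genes it chose were read in the 3 libraries of the number left out, with log2(FPKM + 1) of single libraries. The genes chosen with number 1, 2 or 3 left out included 50, 42 and 26 of the 51 late-fall genes, so the counts are not a readout of the 51 genes themselves. With number 1 left out, 82 genes were chosen, and in the left-out libraries their median difference was -1.42 for 24 h minus 0 h and -1.79 for 24 h minus 6 h. Of these, 32 were at least 1.5 log2 units lower against both, which held for 0.332% of all genes of that filter. With number 2 left out, 24 of 71 chosen genes met both limits, against 0.327% of all genes, and the medians were -1.46 and -1.48. With number 3 left out, 19 of 36 did, against 2.45% of all genes, and the medians were -1.85 and -1.94.

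In the same left-out libraries, the median differences over all genes of the filter were between 0.00322 and 0.03. A fall of at least 1 log2 unit against both times was reached by 59 of 82, 51 of 71 and 28 of 36 chosen genes, against 1.46%, 1.46% and 6.99% of all genes of the filter. At least 1 of the differences was not below 0 in 2, 1 and 0 of them, against 67.1%, 67.3% and 64% of all genes. With number 1, 2 or 3 left out, 50, 47 and 17 chosen genes missed at least 1 of the -1.5 limits in the left-out libraries. Both falls and the limit on the 6 h change were met there by 22, 20 and 18 genes. Read alone, the third 24 h library was at least 1.5 log2 units below the 0 h and 6 h levels in 27 of the 40 genes chosen without it, against 2.32% of all genes, with medians of -1.91 and -2.11. That last reading shares the 0 h and 6 h libraries with the choice.

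Genes that were low at 24 h had mostly dropped by 6 h already. Of the tested genes, 604 lay at least 1.5 log2 units below their 0 h level at 24 h. In 471 of these the 6 h level was already at least 0.7 units lower, in 15 it was at least 0.7 units higher, and in 118 it lay within that limit. The late fall took 51 of the 118. The other 67 failed the limit against 6 h, with a median difference of -1.16. Their 6 h levels lie below those of 0 h by the arithmetic of the limits, and the median of that difference was -0.51. The same limits with the sign turned round, for a late rise, chose 639 tested genes. On the scale of the deposited FPKM, late falls of this depth were thus far fewer than late rises. The pseudocount of 1 limits how far a low gene can fall on this scale, and its part in that difference was not tested. The 24 h FPKM are also scaled up relative to summed reads, which favours rises over falls. With summed reads as the denominator the late falls numbered 78, and the late rises were not counted on that scale.

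**Figure D4:**
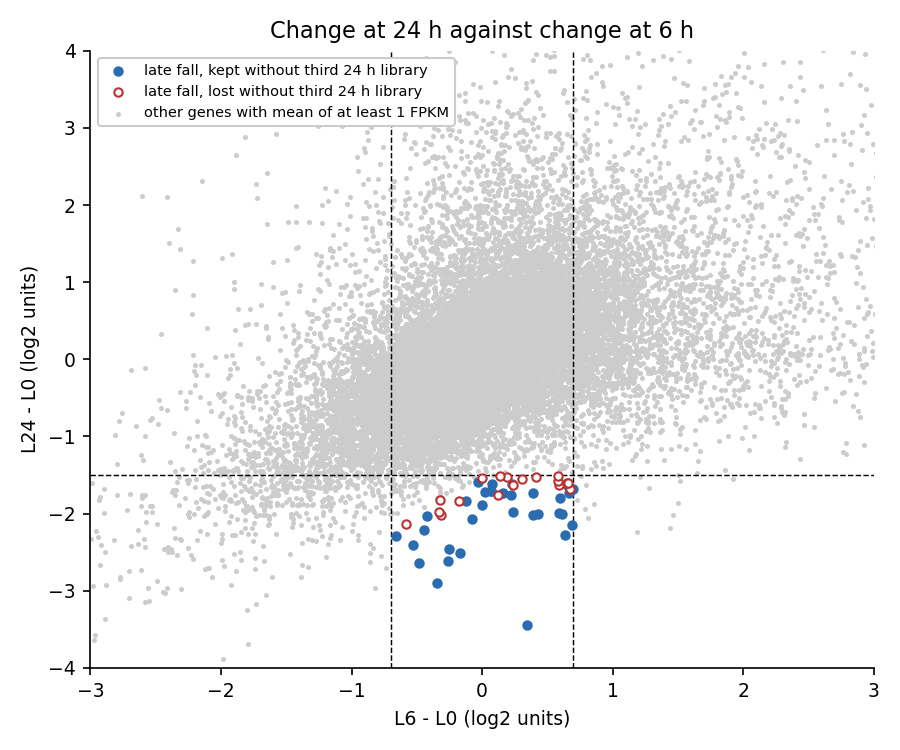
Difference of 24 h from 0 h plotted against that of 6 h from 0 h, in log2 units, for the 51 late-fall genes (filled where kept and open where lost without the third 24 h library) and for the other tested genes in grey. Dashed lines mark the limits of -1.5 and of 0.7 to either side; grey points inside them failed the limit against 6 h, and 447 grey genes lie outside the axes.

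The limits cut through a continuous range of values. Values of such genes follow in the order 0 h, 6 h and 24 h. The gene just inside the limit against 0 h had 9.01, 13.9 and 2.52 FPKM and a difference of -1.51. The gene just outside it had 6.96, 7.43 and 1.83 FPKM and a difference of -1.49. At the limit against 6 h, the gene inside had 192.2, 153.4 and 53.5 FPKM, and the gene outside was much more abundant, with 1661, 1551 and 549.2 FPKM and a difference of -1.497. At the limit on the 6 h change, the gene inside was MD12G1155300, and the gene outside had 19.2, 32.5 and 4.72 FPKM and a 6 h minus 0 h difference of 0.73. In 23 of the 51 genes at least 1 of both falls lay within 0.2 log2 units of its limit.

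The late-fall genes were short. Their recovered length had a median of 903 bases, with a range of 213 to 4314, against a median of 1533 bases in the tested genes. Of the 51 genes, 29 (56.9%) were shorter than the lower quartile of the tested genes, which is 1003 bases, and 5 were longer than the upper quartile of 2207 bases. The rule did not use length. Genes already lower at 6 h had a median of 1147 bases, and 41.2% of them were shorter than that lower quartile. Genes of the mirrored late rise had a median of 1304 bases, with 31.1% below the lower quartile. In the set of 40 genes chosen without the third 24 h library the median was 992.5 bases. These lengths are described with no test, since genes are not replicates. The median 24 h minus 0 h difference of all tested genes was -0.09 in those under the lower quartile and -0.00319 in those over the upper quartile. Between the quartiles it was 0.0679 below the median length and 0.0624 above it, so it did not follow length steadily.

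**Figure D5:**
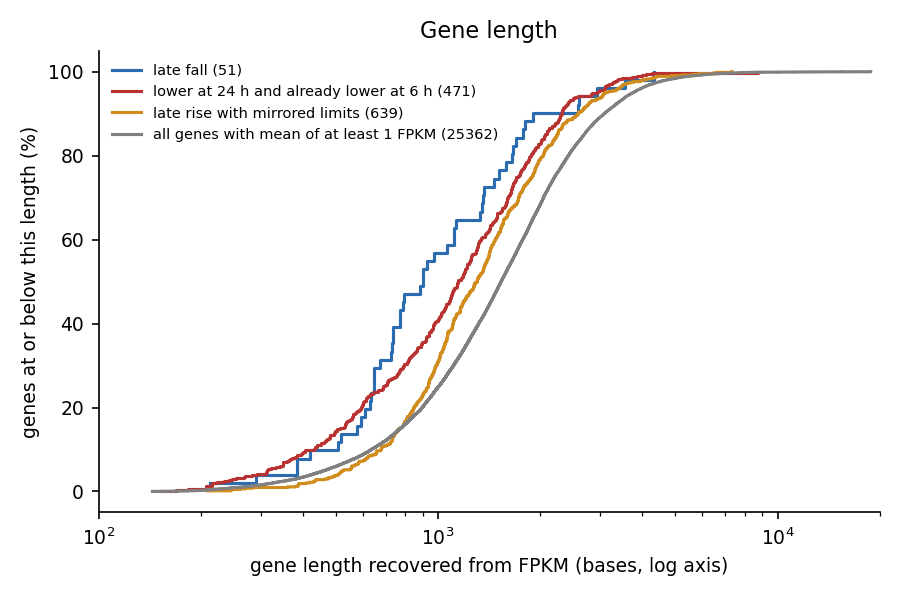
Cumulative share of genes by length in bases on a log axis, for the 51 late-fall genes, the 471 genes lower at 24 h and already lower at 6 h, the 639 genes of the mirrored late rise and all 25362 tested genes. The curve of the late-fall genes lies furthest to the left at its median, at 903 bases against 1533 bases in the tested genes.

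Within a time, the position of single libraries in the late-fall genes was as follows. The third 24 h library was the lowest of its group in 35 of the 51 genes (68.6%), against 41.9% of the tested genes, and its median deviation from the mean of the other two was -0.34 log2 units, against 0.03 in the tested genes. It was at least 1 log2 unit below them in 11 genes and at least 1 unit above in 0. The third 24 h library was the highest of its group in 21.6% of the 51 genes, against 46.2% of the tested genes. Over the tested genes it was thus often at either end of its group. A low value in that library helps a gene to meet the rule. In the 40 genes chosen without that library it was the lowest in 42.5%, and its median deviation was 0.07 log2 units. That choice favours low values in the other 24 h libraries, which works towards a higher position of the third. Both sets are thus shaped by their choice, and nothing is read from the contrast between them. The first 0 h library was the lowest of its group in 32 genes (62.7%), against 37.7% of the tested genes, and its median deviation from the mean of the other two was -0.32 log2 units, against -0.00857 in the tested genes. A low value there lowers the 0 h level and so works against the limit on the fall from 0 h. For the limit on the 6 h change, it works against genes higher at 6 h but can help genes lower at 6 h. Without the first 0 h library the rule gave 62 genes, of which 48 were among the 51. In the 471 genes already lower at 6 h that library was the lowest in 54.4%, and in the 40 genes chosen without the third 24 h library in 57.5%. Both libraries were the lowest of their groups in the same 26 genes (51.0%), in 32.5% of the 40 genes, in 24.6% of the 471 genes and in 14.1% of the tested genes. The shares of the single libraries bear on this overlap, and nothing further is read from it.

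The 35 genes lowest in the third 24 h library had a median length of 790 bases, against 1351.5 bases in the 16 others. Over all tested genes, the third library was lowest in 39.7% of those under the lower quartile of length and in 47.8% of those over the upper quartile. For the first 0 h library these shares were 46.3% and 19.9%. The part of RNA quality, sampled tissue or other differences between these libraries was not tested. At 6 h the lowest library was the first in 14, the second in 20 and the third in 17 genes, close to even.

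Relative to the mean, the spread between libraries had a higher median in the late-fall genes than in the tested genes. The median coefficient of variation was 15.9%, 11.9% and 39.0% at 0 h, 6 h and 24 h, against 8.93%, 7.99% and 15.9% in the tested genes. The part of their lower read counts at 24 h in that spread was not tested.

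The genes were spread over most chromosomes. By the chromosome number that apple identifiers carry after their first letters, where 0 stands for unplaced sequence, the 51 genes fell in 15 of 18 groups. Chromosomes 11 and 13 held 6 each (11.8% of the 51), where 5.92% and 5.52% of the tested genes lie. Chromosome 6 held 5 (9.80%), against 4.72%. Chromosomes 4, 5 and 14 held 0, where 4.77%, 6.81% and 4.76% of the tested genes lie. Unplaced sequence held 4 (7.84%), against 3.13%, and the position of these 4 is not known. In the order of the table, the closest pair within such a group was 24 listed genes apart, so no late-fall genes were direct neighbours in that order.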

How the data were processed

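The authors deposited FPKM per gene for 9 libraries, 3 each at 0 h, 6 h and 24 h. Per the submitters' processing notes, HISAT2 and Cufflinks were used. The sources used here give no versions, genome build, annotation, filters or strand setting, so genes that share reads with near-identical or overlapping genes are uncertain. The rule was applied to all 46558 genes with a pseudocount of 1. The late-fall genes, the gene sets compared with them and the tests were chosen with earlier results of these data known.

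Gene lengths and whole reads were recovered from the FPKM, whose values are whole multiples of 1 step per gene after 1 factor per library. The rebuilt FPKM of the 25362 tested genes differed from the deposited ones by a relative 2.01e-08 at most. Reads cover counting error only.

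Limma 3.58.1 (R 4.3.3) was fitted to log2(FPKM + 1) of all 9 libraries with a mean per time and an intensity trend, with Benjamini-Hochberg adjustment over the tested genes. It was tested on simulated data beforehand. The p-values reflect library-to-library spread, which may be technical. Genes were named by rule: in each comparison up to 2 per direction with the largest differences, among those averaging at least 10 FPKM at 0 h or 6 h and with no overlap at 24 h. The planned lists of gene functions were not run, since no identifier was paired with a name.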

Additional observations from a re-analysis of the deposited data

How the results depend on the processing

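The number of late-fall genes depended on the scale and the limits. The rule gave 155 genes with a pseudocount of 0.1 and 11 with 5, 310 with a fall limit of -1 and 11 with -2, and 78 with summed reads as the denominator, an alternative chosen after seeing the data under which the tested genes had a median difference of -0.17 log2 units for 24 h minus 0 h. Raising the pseudocount makes differences of low genes smaller by its arithmetic. Without single libraries the rule gave 40 to 73 genes, which held 33 to 49 of the 51. Without the third 0 h library it gave 40 genes, of which 38 were among the 51. The median of the libraries in place of the mean gave 48 genes, of which 38 were among the 51. The median difference of the 51 genes was -2.16 with a pseudocount of 0.1 and -1.28 with 5 for 24 h minus 0 h, and -2.38 and -1.44 for 24 h minus 6 h. With a pseudocount of 5, limma called 40 of the 51 genes lower than at 0 h, against 2.83% of the tested genes, and 41 lower than at 6 h, against 3.95%. With a pseudocount of 1 and by adjusted p alone, limma called 16 at 6 h against 0 h, where 51.1% of the tested genes were called. The limit of the rule lowers that count. With the replicate block, limma called 51, 51 and 0 genes, as without it, against 7.92%, 7.8% and 15.5% of the tested genes. The labels do not say whether replicate numbers pair the libraries. Correlations of same-numbered deviations across genes were weak, from -0.0627 to 0.0762. Of the 312 differences of named genes in the alternatives run, 0 changed sign and 26 moved by at least the SD between libraries. The named genes were chosen for large differences, so a change of sign was unlikely beforehand. Read depth at 24 h limits the 5 genes with fewer than 30 reads, without which 46 are left.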
